A study of Homo sapiens with 12 samples.

Results

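The 7 genes IL6, IL11, LIF, IL1A, IL1B, CSF1 and CSF2 encode secreted cytokines of 3 kinds: the IL6-type ligands IL6, IL11 and LIF, the IL1 ligands IL1A and IL1B, and the colony-stimulating factors CSF1 and CSF2. They were chosen by gene symbol, and each matched 1 row of a table of 58671 gene rows. RNA abundance had been measured by sequencing in A549, an epithelial line derived from a human lung carcinoma, in 4 groups of 3 samples, 12 in all. The groups were RNase L knockout cells (RLKO) transfected with poly(I:C), RLKO cells without poly(I:C), parental cells (WT) transfected with poly(I:C), and WT cells without poly(I:C). Poly(I:C) mimics viral double-stranded RNA. It was used at 500 ng/ml and cells were taken after 6 h. Both lines share the A549 background, and the sources used here do not say whether the RLKO line is 1 clone. The comparison asks which transcripts change with double-stranded RNA and how that response looks where RNase L, an endoribonuclease that cleaves single-stranded RNA, has been removed.

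Infected epithelial cells use these ligands to alert their surroundings. IL6, IL11 and LIF each bind their own receptor subunit and share the signal-transducing subunit IL6ST, which acts through JAK kinases and STAT3. IL1A and IL1B bind IL1R1 with IL1RAP and signal through MYD88 and IRAK kinases to NF-kB. CSF1 drives the survival of macrophages, and CSF2, also called GM-CSF, acts on granulocytes and macrophages, those of the lung alveoli among them. Most of these mRNAs are known as short-lived: AU-rich elements in the 3′ untranslated region (3′ UTR) recruit decay proteins such as tristetraprolin, and NF-kB drives the transcription of several of them.

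The stretch of each 3′ UTR with the most ATTTA pentamers in 30 bases is given first. In IL6 several places tied, and the first stretch centred exactly on its matches is shown. All 7 mRNAs hold these letters, which the choice by name did not use, as do 76.7% of the protein-coding genes counted below. Sequences are from GENCODE v29 transcripts, written 5′ to 3′ on the mRNA strand with T for U, and capitals mark ATTTA.
IL6: agttaATTTAtgtaagtcatATTTAtattt
IL11: ccagatcttATTTATTTATTTAtttcagta
LIF: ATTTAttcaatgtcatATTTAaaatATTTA
IL1A: tATTTAtatatgtATTTAtaaatatATTTA
IL1B: cgcttccctATTTATTTATTTAtttgtttg
CSF1: taaagtcATTTAaatatctATTTAaaagat
CSF2: aaaatATTTATTTATTTATTTATTTAagtt
In GRCh38 these stretches lie at chr7:22731741-22731770 (plus strand) for IL6, chr19:55365943-55365972 (minus) for IL11, chr22:30240522-30240551 (minus) for LIF, chr2:112774424-112774453 (minus) for IL1A, chr2:112829995-112830024 (minus) for IL1B, chr1:109930917-109930946 (plus) for CSF1 and chr5:132076076-132076105 (plus) for CSF2, all in the exonic 3′ UTR. CSF2 holds 5 overlapping pentamers in its 30 bases, whereas IL6 and CSF1 hold 2 and the other members 3.

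Counted over the whole 3′ UTR, ATTTA on the mRNA strand occurred in all 7 members, as it did in 76.7% of 9759 protein-coding genes whose GENCODE transcript has the deposited length. It occurred 8 times in the 318 bases of CSF2, 6 times in the 429 bases of IL6, 6 times in the 610 bases of IL1B and 9 times in the 1618 bases of IL11. That was 25.2, 14.0, 9.84 and 5.56 per 1000 bases, against a median of 1.82 over those genes. The densities of CSF2 and IL6 were above those of 99.9% and 99.6% of them. LIF, with 7 matches in 3204 bases, and CSF1, with 4 in 2154 bases, were near the median at 2.18 and 1.86 per 1000 bases. IL1A had 5 matches in 1152 bases, or 4.34 per 1000. The longer TTATTTATT, which contains the pentamer, was found in 4 members: 6 times in IL11, 3 times in CSF2, and 2 times each in LIF and IL1B. It occurs in 10.4% of the genes, and in 1.51% of 72756 windows of 300 bases cut from the 3′ UTRs of 11981 protein-coding genes. ATTTA itself occurs in 43.0% of those windows.

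**Figure D1:**
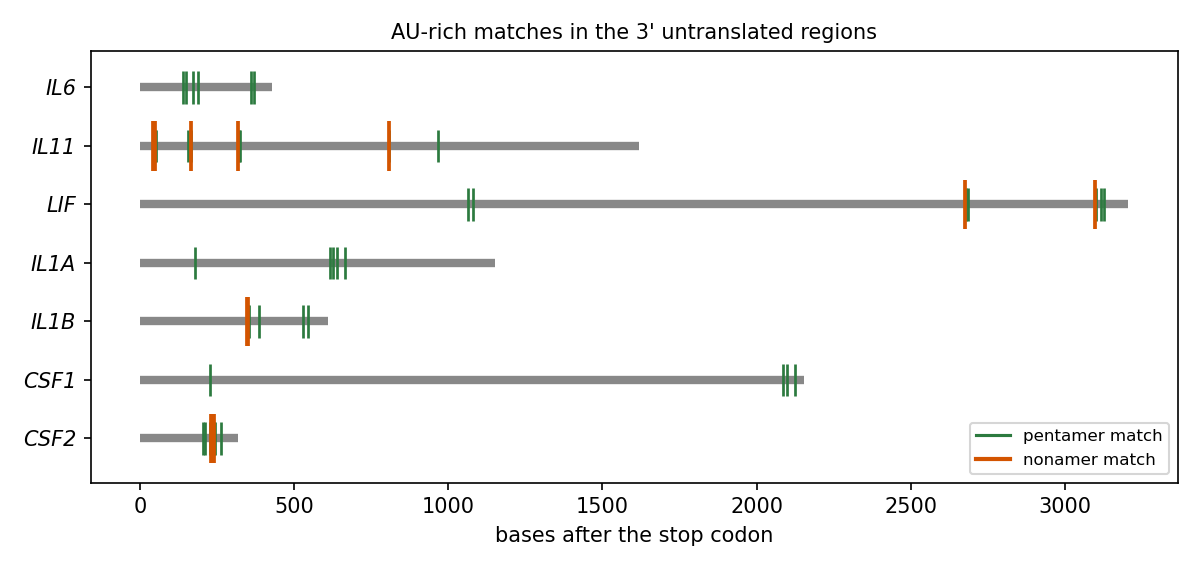
Positions of AU-rich matches along the 3′ UTR of each cytokine mRNA; the horizontal axis is the distance from the stop codon in bases, grey bars give the length of the region, green ticks ATTTA matches and taller orange ticks TTATTTATT matches. The matches of CSF2 and IL1B crowd in short regions of 318 and 610 bases, while LIF and CSF1 carry most of theirs towards the end of regions of 3204 and 2154 bases.

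RNase L is known to cut after UA and UU, and by this count the 7 mRNAs lay on both sides of the median gene. UA and UU together made up 16.1 per 100 bases of the IL1A transcript, 13.3 of IL6, 11.8 of IL1B, 11.3 of CSF2, 9.16 of IL11, 8.34 of LIF and 5.94 of CSF1, where the median gene had 12.1. IL1A stood above 78.1% of the genes and CSF1 above 12.9%. By the transcript half-life that the authors' deposited table takes from another study, given there without a unit, LIF was longer-lived than 1.84% of 9527 protein-coding genes, IL6 than 14.2%, CSF1 than 16.2% and IL11 than 51.1%. No half-life is listed for IL1A, IL1B or CSF2. Transcript lengths in the authors' deposited table were 787 to 4210 bases (median of protein-coding genes 3623) and GC contents 39.97% to 60.87% (median 44.5%).

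Promoters are shown for IL6 and IL1A, the genes that rose in both lines. The sequences are the 150 bases before the RefSeq start in GRCh38.p14, at chr7:22727050-22727199 (plus strand) and chr2:112784494-112784643 (minus strand), and capitals mark matches on either strand to GGGA and CC with any 4 bases between them, letters of an NF-kB site, or to TGANTCA, letters of an AP-1 site.
IL6: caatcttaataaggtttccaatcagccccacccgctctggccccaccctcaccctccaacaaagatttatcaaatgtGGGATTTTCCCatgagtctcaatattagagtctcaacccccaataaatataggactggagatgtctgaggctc
IL1A: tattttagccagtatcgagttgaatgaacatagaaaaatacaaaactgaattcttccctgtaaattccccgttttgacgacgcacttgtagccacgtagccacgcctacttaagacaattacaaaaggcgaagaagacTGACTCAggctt
The IL6 stretch held the NF-kB letters in 2 overlapping frames, which begin at -73 and -72 from the start, and IL1A held the AP-1 letters at -12. Of the other members with an entry in the table, CSF2 matched the NF-kB letters at -85, IL11 the AP-1 letters at -96 and IL1B neither. The NF-kB letters occur in 15.03% and the AP-1 letters in 4.17% of 35116 promoters of the same length. A match is a description of letters and not evidence of a bound site. By GENCODE v29 the IL6 stretch lies inside the gene span given below, and the IL1A stretch partly inside its own. The RefSeq starts used here thus lie downstream of the 5′ ends of those spans.

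Each level below is in FPKM, fragments scaled to transcript length and to library size, as the authors deposited it: 1 value per group over its samples. The table thus gives neither a spread between samples nor a depth. In bulk samples, fewer cells and less RNA per cell cannot be told apart. A gene is said to rise or fall only where the q-value of the authors' Cuffdiff test of poly(I:C) against untreated cells was under 0.05. Changes on the log2 scale were computed after dividing each group by the level of the ERCC spike-in RNAs, with a pseudocount of 1 that understates the change of low genes. On that scale the median protein-coding gene changed by -0.24 in RLKO and by -0.70 in WT, and in FPKM as deposited by -0.10 and -0.17. The spike-in factor was 1.13 times higher with poly(I:C) in RLKO and 1.53 times higher in WT. The authors' q-values printed beside the log2 changes are not a test of values on the spike-in scale. For LIF in WT, the log2 ratio of the deposited FPKM was 1.65, and the change on the spike-in scale was 1.00. Of 6 lung epithelial markers all reached 1 FPKM in some group, KRT7 at 1003 to 1748 FPKM and EPCAM at no more than 1.03 FPKM; their sum was 2941 FPKM in treated and 3033 FPKM in untreated RLKO cells, and 1586 FPKM in treated and 2921 FPKM in untreated WT cells. Of 7 leukocyte markers CD68 and ITGAM did so, and PTPRC stayed at or below 0.0421 FPKM. The leukocyte sum was 21.1 FPKM in treated and 25.6 FPKM in untreated RLKO cells, and 34.5 FPKM in treated and 21.1 FPKM in untreated WT cells. ITGAM within it had 4.62 FPKM in treated and 2.71 FPKM in untreated RLKO cells, and 9.45 FPKM in treated and 1.60 FPKM in untreated WT cells. ITGAM was thus higher in treated cells of both lines, and the epithelial sum lower in treated WT cells; their part in the results was not tested. Of 5 fibroblast and 3 endothelial markers COL1A1 was the single one to reach 1 FPKM.

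Poly(I:C) raised 2 of the 7 cytokine genes in RLKO cells and 4 in WT cells, and lowered none in either. IL6 and IL1A rose in both lines, and CSF1 and LIF passed the test in WT. All 7 passed the filter of 1 FPKM in at least 1 group, CSF2 through its treated values alone. Over all 22087 rows past the filter, 0.512% were called higher and 0.0272% lower in RLKO, and 4.48% higher and 3.35% lower in WT. The members had been chosen with earlier results of these data known, so their counts are descriptions. Their median log2 change was 0.70 in RLKO and 1.00 in WT, an order that turned with a pseudocount of 0.1, at 1.32 in RLKO and 1.03 in WT. With the pseudocount of 1, all 7 lay above the median protein-coding gene of either line. For CSF2 this adds nothing, because it passed the filter through treated values alone. An unadjusted p under 0.05 stood in the authors' deposited table for 4 members in RLKO and 6 in WT, and for 3.67% and 19.2% of all rows past the filter.

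**Figure D2:**
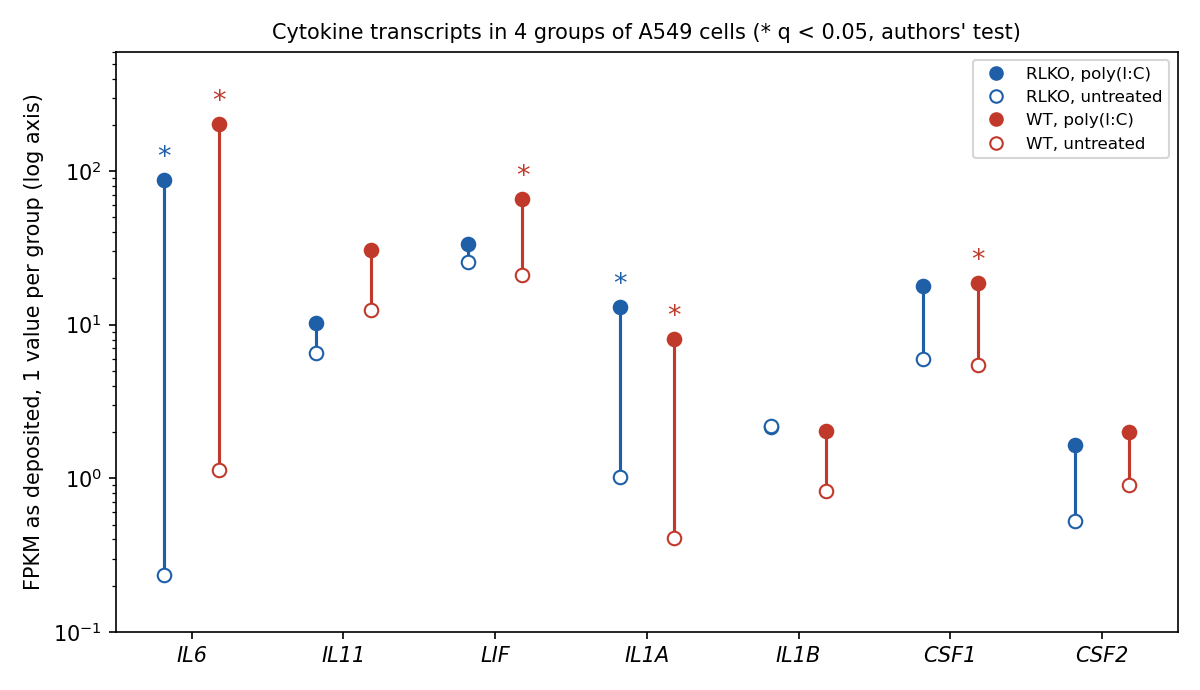
FPKM as deposited (log axis) of the 7 cytokine genes, RLKO in blue at the left and WT in red at the right of each pair; filled circles are poly(I:C) groups, open circles untreated groups, each the authors' single value with no error available, and asterisks mark q under 0.05 in the authors' test. IL6 spans the widest range, with 87.5 FPKM in treated and 0.234 FPKM in untreated RLKO cells.

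IL6, the founding ligand of its family and an inducer of the acute-phase response, had the largest change of the 7 in both lines. It stood at 87.5 FPKM in treated against 0.234 FPKM in untreated RLKO cells, and at 202 FPKM in treated against 1.14 FPKM in untreated WT cells. The log2 change was 6.02 in RLKO (q = 0.0107 in the authors' deposited table), and 6.11 in WT (q = 0.00319 in the authors' deposited table). By size of change it ranked 8 among 12181 protein-coding genes in RLKO and 11 in WT. In level it ranked 1123 in treated and 11936 in untreated RLKO cells, and 275 in treated and 10998 in untreated WT cells. The untreated values were low and differed 4.87-fold between the lines, higher in WT. The plain FPKM ratio was therefore larger in RLKO, 375-fold, than in WT, 178-fold, although the treated level was 2.31 times higher in WT. The IL6 gene lies on chromosome 7, 22725884 to 22732002 (GRCh38, plus strand). Its 5′ part overlaps STEAP1B and AC073072.1 on the other strand, which reached at most 0.980 and 1.198 FPKM.

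LIF, which keeps mouse embryonic stem cells undifferentiated and acts in inflammation, was the most abundant of the 7 before treatment. It stood at 33.4 FPKM in treated against 25.8 FPKM in untreated RLKO cells, and at 66.0 FPKM in treated against 21.1 FPKM in untreated WT cells. It rose in WT, with a log2 change of 1.00 (q = 0.0389 in the authors' deposited table). In RLKO the log2 change was 0.19 and the gene was not called (q = 0.9995 in the authors' deposited table). The LIF gene (chromosome 22, 30240447 to 30246851, minus strand) overlaps 2 antisense genes on the other strand, LIF-AS1 by 92 bases and AC004264.1 by 647 bases. AC004264.1 was listed at 2.06 FPKM in treated and 2.55 FPKM in untreated RLKO cells, and at 7.45 FPKM in treated and 1.72 FPKM in untreated WT cells. Since the sources used here do not say whether the counting used strand, reads of such pairs cannot be told apart.

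IL11, known for roles in fibrosis and platelet formation, was not called in either line. It had 10.3 FPKM in treated against 6.53 FPKM in untreated RLKO cells, a log2 change of 0.43 (q = 0.9995 in the authors' deposited table). In WT cells it had 30.6 FPKM in treated against 12.4 FPKM in untreated cells, a log2 change of 0.66 (q = 0.0681 in the authors' deposited table). Both WT values were above both RLKO values. The gene lies on chromosome 19, 55364389 to 55370463 (minus strand).

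IL1A, an alarm signal that epithelial cells can release on damage, had the largest change after IL6. It stood at 12.99 FPKM in treated against 1.03 FPKM in untreated RLKO cells, and at 8.02 FPKM in treated against 0.408 FPKM in untreated WT cells. The log2 change was 2.64 in RLKO (q = 0.0107 in the authors' deposited table) and 2.33 in WT (q = 0.00180 in the authors' deposited table), ranks 42 and 111 among protein-coding genes. These are the smallest q-values that the authors' deposited table holds for each line, and other genes share them, such as CEBPD in both lines.

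IL1B, whose protein needs cleavage by caspase-1 before it is active, lies 45160 bases from IL1A on chromosome 2 (112829751 to 112836903, against 112773915 to 112784590, both minus strand) and was called in neither line. It had 2.15 FPKM in treated against 2.195 FPKM in untreated RLKO cells, a log2 change of -0.14 (q = 0.9995 in the authors' deposited table). In WT cells it had 2.03 FPKM in treated against 0.823 FPKM in untreated cells, a log2 change of 0.39 (q = 0.199 in the authors' deposited table). The untreated WT value was thus the low one of the 4, and the other 3 lay between 2.03 and 2.195 FPKM.

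CSF1, the macrophage growth factor, showed almost the same levels in both lines. It stood at 17.7 FPKM in treated against 5.99 FPKM in untreated RLKO cells, and at 18.6 FPKM in treated against 5.48 FPKM in untreated WT cells. The log2 change was 1.26 in RLKO, which was not called (q = 0.188 in the authors' deposited table), and 1.05 in WT, where the gene rose (q = 0.0103 in the authors' deposited table). Of 25 protein-coding genes within 0.1 of its log2 change in RLKO, CSF1 itself among them, 6 were called higher. Of 170 such genes in WT, again with CSF1 among them, 77 were. These counts were chosen after the values were seen. The gene lies on chromosome 1, 109910242 to 109930992 (plus strand).

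CSF2 (chromosome 5, 132073790 to 132076170, plus strand) was the lowest of the 7 in treated cells of both lines. It had 1.65 FPKM in treated against 0.525 FPKM in untreated RLKO cells, a log2 change of 0.70 (q = 0.517 in the authors' deposited table). In WT cells it had 2.02 FPKM in treated against 0.907 FPKM in untreated cells, a log2 change of 0.31 (q = 0.353 in the authors' deposited table). The treated values were the higher ones in both lines, without a call. As CSF2 passed the filter through its treated values alone, that direction is no result about CSF2. In FPKM its ratio was 3.14-fold in RLKO and 2.22-fold in WT, so the pseudocount weighs on its log2 change.

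Set in order of level, treated RLKO cells held IL6 first, then LIF, CSF1, IL1A, IL11, IL1B and CSF2, and treated WT cells IL6, then LIF, IL11, CSF1, IL1A, IL1B and CSF2. In untreated RLKO cells LIF was followed by IL11, CSF1, IL1B, IL1A, CSF2 and, last, IL6, and in untreated WT cells by IL11, CSF1, IL6, CSF2, IL1B and IL1A. With no spread in the table, neighbours in these orders cannot be called different. IL1B and CSF2 in treated WT cells, at 2.03 and 2.02 FPKM, were the closest pair.

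Before treatment, 4 of the 7 had the higher FPKM in RLKO and 3 in WT. IL1B was 2.67 times and IL1A 2.52 times higher in RLKO, whereas IL6, IL11 and CSF2 were 4.87, 1.90 and 1.73 times higher in WT. LIF and CSF1 were 1.22 and 1.09 times higher in RLKO. On the spike-in scale these 2 turned, to log2 differences of -0.01 and -0.14, so that 2 of the 7 were higher in RLKO and 5 in WT. After poly(I:C), 2 had the higher FPKM in RLKO, IL1A by 1.62 times and IL1B by 1.06 times, and 5 in WT, IL11 by 2.97, IL6 by 2.31, LIF by 1.97, CSF2 by 1.22 and CSF1 by 1.05 times. On the spike-in scale treated CSF1 turned, to a log2 difference of 0.07, so that 3 were higher in RLKO and 4 in WT. None of these differences between the lines carries a test.

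The response itself was compared as the log2 change in RLKO minus that in WT, also without a test. It was -0.81 for LIF, -0.53 for IL1B, -0.23 for IL11, -0.08 for IL6, 0.21 for CSF1, 0.31 for IL1A and 0.39 for CSF2. On this scale none reached 1 in either direction, while 24.1% of protein-coding genes were at or above 1 and 4.42% at or below -1. The median protein-coding gene stood at 0.47, and all 7 members lay below it. In FPKM as deposited the median gene stood at 0.10, and 5 of the 7 lay below it. LIF, IL11 and IL1B kept their sign under each of the 3 other scalings tried, LIF at -1.24 in FPKM as deposited, as did CSF2. The sign for IL6 turned to 1.11 with a pseudocount of 0.1, that of IL1A to -0.08 with the same pseudocount, and that of CSF1 to -0.18 in FPKM as deposited. Which line had the larger response of these 3 genes thus depended on the scale.

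**Figure D3:**
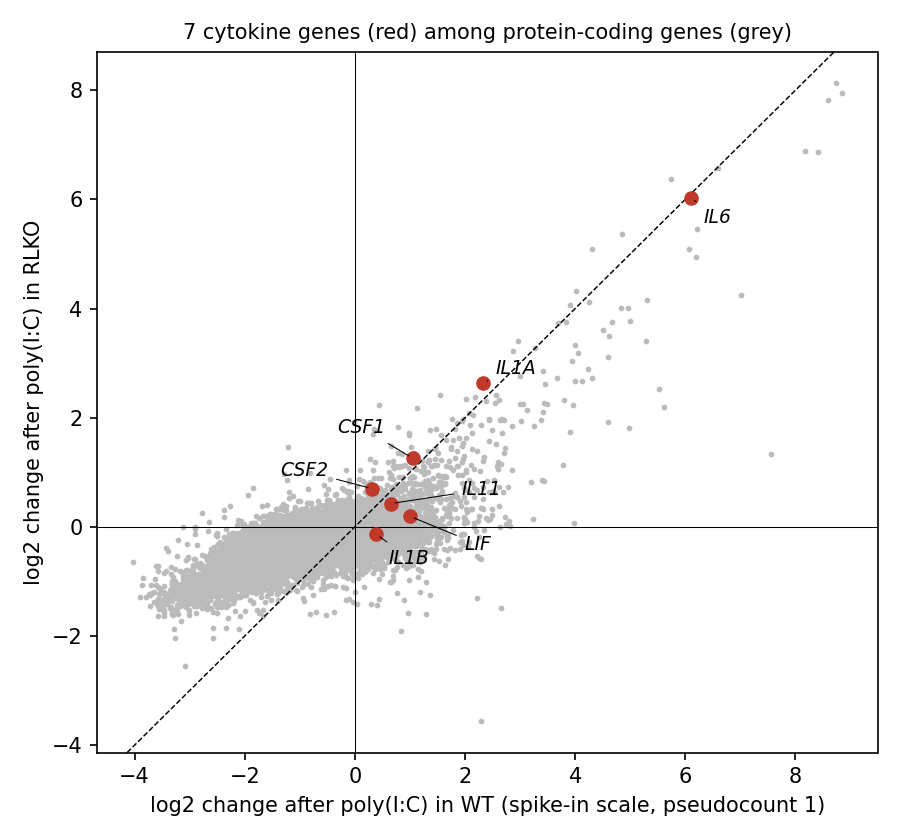
Log2 change after poly(I:C), scaled to the spike-ins (pseudocount 1), in RLKO (vertical axis) and WT (horizontal axis), of 12181 protein-coding genes (grey) and the 7 cytokine genes (red); the dashed line marks equal changes, and each point rests on 1 value per group. IL6 lies on the line at 6.02 in RLKO and 6.11 in WT, and LIF below it at 0.19 in RLKO and 1.00 in WT.

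Other genes of the same pathways were taken from 7 lists with 79 genes, of which 47 passed the filter. Poly(I:C) raised 2 of the 47 in RLKO and lowered none, and raised 5 and lowered 1 in WT; an unadjusted p under 0.05 stood for 6 in RLKO and 12 in WT. Over all rows 0.512% were called higher and 0.0272% lower in RLKO, 4.48% higher and 3.35% lower in WT, and 3.67% and 19.2% had such a p. The 1 of 47 called lower in WT is thus near the share of all rows. Of the 47, 7 passed the filter through treated cells alone: CNTF, OSM, CSF3, IL5, CSF1R, IL1R2 and IL1RL1. Receptors and kinases of the IL6-type pathway were mostly expressed: of 13 listed, 12 passed the filter. None was called in RLKO, where 3 had an unadjusted p under 0.05, and 2 rose in WT. SOCS3, the feedback inhibitor of IL6ST, stood at 35.8 FPKM in treated against 12.9 FPKM in untreated RLKO cells (log2 1.24, q = 0.0638 in the authors' deposited table), and at 95.2 FPKM in treated against 15.4 FPKM in untreated WT cells (log2 1.96, q = 0.00180 in the authors' deposited table). JAK2, a kinase of the pathway, stood at 18.7 FPKM in treated against 5.33 FPKM in untreated RLKO cells (log2 1.48, q = 0.272 in the authors' deposited table), and at 29.3 FPKM in treated against 4.38 FPKM in untreated WT cells (log2 1.95, q = 0.0103 in the authors' deposited table). IL6ST was abundant and not called, at 209 FPKM in treated and 144 FPKM in untreated RLKO cells and at 120 FPKM in treated and 70.3 FPKM in untreated WT cells. STAT3 was not called either, at 51.5 and 43.9 FPKM in treated and untreated RLKO cells and 73.8 and 44.0 FPKM in treated and untreated WT cells. The median log2 change of the 12 was 0.09 in RLKO and -0.04 in WT, and in FPKM as deposited 0.26 and 0.50.

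Of 7 further IL6-type ligands 4 passed the filter and none was called or had an unadjusted p under 0.05. Their log2 changes were below 0 in RLKO in all 4 cases on the spike-in scale, and in 2 of 4 in FPKM as deposited and with median-ratio scaling, where CLCF1 and OSM lay above 0. In WT all 4 lay above 0 on each of the scales tried. CLCF1, the highest, had 18.0 FPKM in treated and 17.1 FPKM in untreated RLKO cells, and 32.7 FPKM in treated and 15.8 FPKM in untreated WT cells. CNTF and OSM passed the filter through treated WT cells alone, which fixed a higher FPKM in treated than in untreated WT cells for both. The count of 4 above 0 in WT is therefore no result about these ligands.

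Of 17 IL1 receptors and signalling genes 16 passed the filter. Of these 1 rose in RLKO and 2 in WT, and none fell. IRAK2, a kinase that carries the IL1 signal, rose in both lines: it stood at 23.1 FPKM in treated against 8.88 FPKM in untreated RLKO cells (log2 1.12, q = 0.0279 in the authors' deposited table), and at 20.8 FPKM in treated against 8.09 FPKM in untreated WT cells (log2 0.69, q = 0.0454 in the authors' deposited table). IL1R2, the decoy receptor that binds IL1 without signalling, passed the filter through treated WT cells alone and was called higher there, with 1.60 FPKM in treated against 0.390 FPKM in untreated cells (log2 0.64, q = 0.0367 in the authors' deposited table). In RLKO it had 0.297 FPKM in treated and 0.514 FPKM in untreated cells and was not called. The most abundant of the rest were IRAK1, at 72.2 and 81.7 FPKM in treated and untreated RLKO cells and 62.0 and 97.1 FPKM in treated and untreated WT cells, and SIGIRR, an inhibitory receptor of the family. SIGIRR had 20.6 and 27.5 FPKM in treated and untreated RLKO cells and 15.3 and 30.7 FPKM in treated and untreated WT cells. Neither was called.

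Of 11 genes that process IL1 or form inflammasomes 6 passed the filter. On the spike-in scale all 6 lay below 0 in both lines, but in FPKM as deposited CASP8 lay above 0 in both, and with median-ratio scaling 3 lay above 0 in RLKO and 1 in WT. Of these 1 fell, in WT, and none was called in RLKO; the unadjusted p was under 0.05 for 0 in RLKO and 1 in WT. CASP4, the caspase that senses bacterial lipopolysaccharide inside cells, fell in WT to 7.04 FPKM in treated against 35.2 FPKM in untreated cells (log2 -2.74, q = 0.0168 in the authors' deposited table). In RLKO it had 21.2 FPKM in treated and 41.2 FPKM in untreated cells (log2 -1.09, q = 0.9995 in the authors' deposited table). CASP1, which cleaves the IL1B precursor, was at 0.706 and 1.69 FPKM in treated and untreated RLKO cells and at 0.134 and 0.674 FPKM in treated and untreated WT cells. CAPN2, a subunit of the calpain family that can cleave the IL1A precursor, and CASP8 were the most abundant uncalled genes. CAPN2 had 161 and 184 FPKM in treated and untreated RLKO cells and 110 and 165 FPKM in treated and untreated WT cells. CASP8 had 56.7 and 55.3 FPKM in treated and untreated RLKO cells and 60.0 and 43.7 FPKM in treated and untreated WT cells. The median log2 change of the 6 was -0.31 in RLKO and -1.08 in WT, beside -0.24 and -0.70 over all protein-coding genes.

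Few other IL1 ligands or colony-stimulating factors were expressed. Of 9 further IL1 family ligands 1 passed the filter, IL18, which was not called in either line at any threshold tried: it had 42.3 and 53.7 FPKM in treated and untreated RLKO cells and 35.6 and 102 FPKM in treated and untreated WT cells. The receptor antagonist IL1RN was at most 0.193 FPKM. Of 8 further colony-stimulating factors, relatives and receptors 3 passed, through treated WT cells alone, and none was called or had an unadjusted p under 0.05. These were CSF3 at 1.51 FPKM, IL5 at 2.84 FPKM and CSF1R, the receptor of CSF1, at 1.54 FPKM in treated WT cells. CSF2RA, a receptor subunit of CSF2, and IL3, the neighbour of CSF2 in the genome, were listed at 0 in all groups. Both were marked as not tested, and CSF2RA stands under a repeated identifier.

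Genes known to answer to IL6-type cytokines through STAT3 passed the filter in 5 of 14 cases, and SAA1, HP and LBP, acute-phase genes of the liver, were not among them. CEBPD, a transcription factor of the acute-phase response, rose in both lines: it stood at 7.93 FPKM in treated against 2.14 FPKM in untreated RLKO cells (log2 1.36, q = 0.0107 in the authors' deposited table), and at 10.6 FPKM in treated against 2.86 FPKM in untreated WT cells (log2 1.08, q = 0.00180 in the authors' deposited table). No other gene of this list past the filter was called. An unadjusted p under 0.05 in the authors' test stood for all 5 in WT and 2 in RLKO. Such a p stood for 19.2% of all rows past the filter in WT and 3.67% in RLKO. Below the filter, HP had 0.790 FPKM in treated against 0.0725 FPKM in untreated WT cells (q = 0.0241 in the authors' deposited table). FGA, also below it, went the other way in WT, with 0.287 FPKM in treated against 0.688 FPKM in untreated cells (unadjusted p = 0.036 in the authors' test). JUNB, a transcription factor, had 39.1 and 22.0 FPKM in treated and untreated RLKO cells and 115 and 30.1 FPKM in treated and untreated WT cells. BCL3, a nuclear IkB protein, had 15.4 and 9.03 FPKM in treated and untreated RLKO cells and 28.1 and 12.4 FPKM in treated and untreated WT cells.

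**Figure D4:**
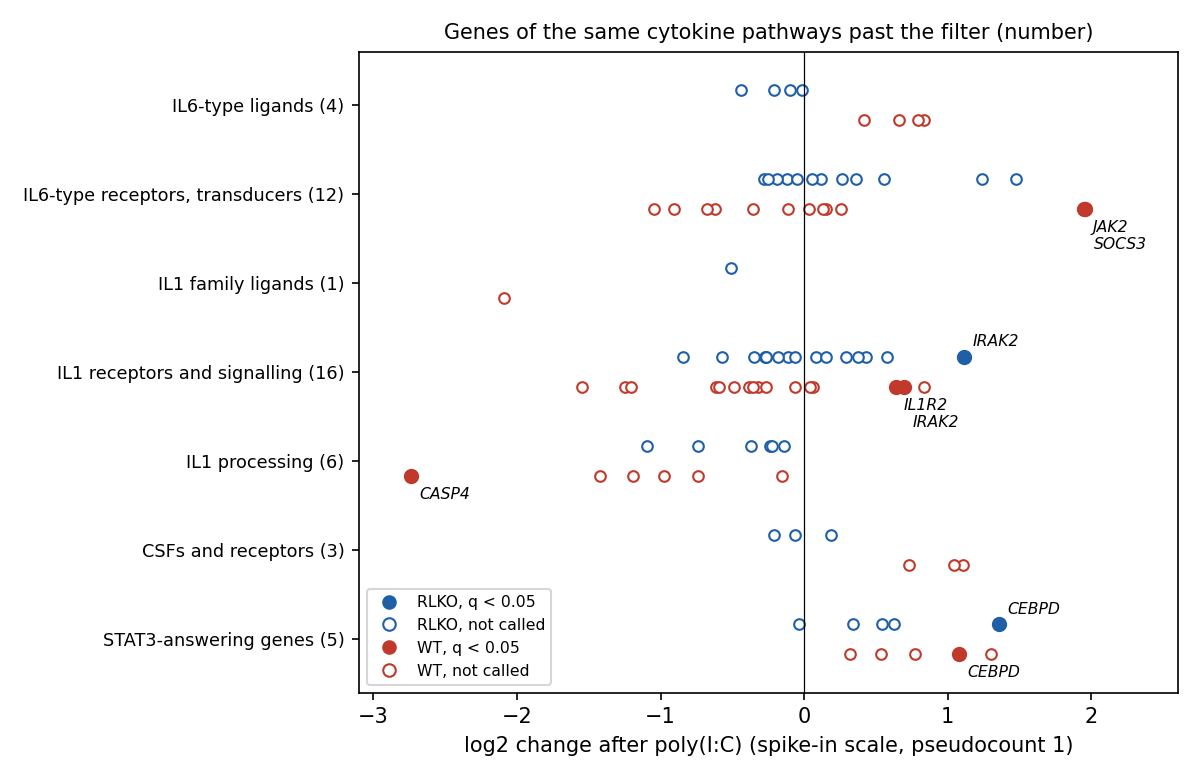
Log2 change after poly(I:C) (horizontal axis, spike-in scale, pseudocount of 1) of the pathway genes past the filter, by list with the number of genes, RLKO (blue) above WT (red); filled and named circles have q under 0.05 in the authors' test. CASP4, at -2.74 in WT, is the single one called lower, and IRAK2 and CEBPD are called in both lines.

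The genes with the most similar course over the 4 groups were looked up for the 4 called members, by the Euclidean distance between centred log2 values among 12181 protein-coding genes. With 4 values per gene this is a description. IL6 lay nearest to IFIT3, OASL and RSAD2 (distances 0.73, 0.85 and 0.87), IL1A to SAMD9, CMPK2 and CEACAM1 (0.33, 0.40 and 0.44), CSF1 to THEMIS2, TIPARP and HAPLN3 (0.09, 0.14 and 0.15) and LIF to CCDC144NL, EPC1 and COLEC11 (0.03, 0.05 and 0.06). CCDC144NL and COLEC11 passed the filter through treated WT cells alone, at 1.18 and 1.36 FPKM. In the other groups they stood at no more than 0.202 FPKM, while LIF had 21.1 to 66.0 FPKM. The pseudocount of 1 thus weighs on their small distances to LIF. With a pseudocount of 0.1, 4 of the 12 neighbours were again among the nearest: OASL for IL6, CMPK2 and CEACAM1 for IL1A, and EPC1 for LIF. OASL, an interferon-induced relative of the oligoadenylate synthetases, had 164 FPKM in treated against 0.564 FPKM in untreated RLKO cells, and 231 FPKM in treated against 0.776 FPKM in untreated WT cells. CMPK2, an interferon-induced nucleotide kinase, had 7.93 FPKM in treated against 0.566 FPKM in untreated RLKO cells, and 6.53 FPKM in treated against 0.326 FPKM in untreated WT cells. OASL and CMPK2 were called higher in both lines, CEACAM1 and EPC1 in WT.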

How the data were processed

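Total RNA was depleted of rRNA after ERCC spike-in RNAs had been added, per the labels. The submitters' processing notes name Trimmomatic 0.32 and FastQC, Bowtie2 2.0.2, TopHat2 2.0.6, the build GRCh38.p12 and, for the test, Cuffdiff 2.2.1, without settings. The authors deposited 1 FPKM value per group, and the p-values and q-values of their tests within each line, per the file headers. These q-values were the planned test. A limma fit had been planned only in case values per sample were given, and was not run. Half-lives, lengths in bases and GC percent were deposited by the authors in the same table. How Cuffdiff scaled the libraries and whether it used strand are not given in the sources used here.

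Of the 58763 rows, 92 ERCC rows, 86 rows with the status HIDATA and 45 repeated identifiers were set aside, and rows with at least 1 FPKM in 1 group were kept. The spike-in factor of a group is its median ratio to the mean of the groups over 49 ERCC rows. GENCODE v29 holds all 58671 gene identifiers. Named genes were the members, of each list the called genes and the 2 most abundant others, and the 3 nearest by profile of each called member; a few further list genes and markers were named after their values were seen. Some genes under this rule are not reported here. Members and lists were chosen with earlier results of these data known. The spike-in scaling, the log2 changes of abundant genes and the adjustment of p-values were tested on simulated data. The changes of low genes, the sequence counts and the nearest profiles were not. Computation used Python 3.11.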

Additional observations from a re-analysis of the deposited data

How the results depend on the processing

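With a q threshold of 0.01 no member was called in RLKO, where the smallest q in the table is 0.0107, and 2 were called in WT, IL6 and IL1A. Of the pathway genes that threshold left 0 higher in RLKO, and 2 higher and 0 lower in WT. With a threshold of 0.10, IL11 was called in WT as well. The authors' p-values adjusted over the kept rows, the absence of a filter (which adds HP to the pathway genes called in WT) and a filter of 5 FPKM gave the same member calls as the original setting; the filter of 5 FPKM removed IL1R2, leaving 4 pathway genes called higher in WT against 5. The median log2 change of the 7 members was 1.32 in RLKO and 1.03 in WT with a pseudocount of 0.1, which turns the order of the lines, and in WT it was 1.60 in FPKM as deposited and 1.69 with median-ratio scaling. Of the genes nearest to a member by profile, 4 were shared under a pseudocount of 0.1. No called member changed direction under any scaling tried. IL1B in RLKO, which was not called, stood at 0.11 with median-ratio scaling.

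With 1 value per group, leaving out each replicate in turn could not be run. No paired analysis was possible either, because each column pools the replicates of its group. Read depth is unknown, so values under about 1 FPKM, such as untreated IL6, IL1A and CSF2, have an error that the table does not give. Folds that rest on them are the least certain.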
